A study of Mus musculus with 3 samples.

Results

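The genes described here encode the translation initiation factors (symbols starting with Eif and a number), the elongation factors and their modifying enzymes (Eef), and the aminoacyl-tRNA synthetases of the mouse. They were chosen by name, from spots that the platform annotation assigns to a single gene, and comprised 62 genes on 109 spots, of 7984 named genes and 16273 spots in all. Each of 3 cDNA arrays held both tissues in different colours, with Cy3 on the spleen sample and Cy5 on the liver sample, and the arrays form 1 group. Both RNAs were commercial total RNA preparations amplified in a double round before labelling, and the labels give no strain, age, sex or treatment, nor whether several animals were pooled. The labels number the arrays 1, 2 and 3 without naming separate animals or amplifications, so p-values measure only how these arrays vary, and that variation may be technical. The dyes were swapped on none of them, so differences due to dye and to tissue cannot be told apart.

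Translation starts when initiation factors bring the initiator tRNA and the small ribosomal subunit to the capped end of an mRNA. The complex eIF2 carries the initiator tRNA, eIF3 holds the small subunit in place, and the eIF4 proteins bind the cap and unwind the mRNA. Elongation factors then deliver charged tRNAs and move the ribosome along. The synthetases charge each tRNA with its amino acid, in the cytosol and, through mostly separate genes, in mitochondria. Liver cells make large amounts of plasma protein, and antibody-secreting cells do so in the spleen.

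Each value was the deposited log2 ratio of the channels, averaged over a gene's spots on each array, with an exact 0 taken as a missing ratio. These are relative values that give no level of a transcript, and the signal over background behind them is unknown. In tissue RNA, fewer cells of a type and less RNA per cell cannot be told apart. The deposited values do not state their direction. Positive ratios are called liver over spleen because fibrinogen beta (Fgb) stood at 4.90, 4.99 and 2.52 on arrays 1, 2 and 3, whereas the B-cell antigen Ms4a1 stood at -4.22, -4.08 and -3.49. This direction is likely, not stated. Only 2 of 13 listed liver genes and 4 of 9 listed spleen genes had any ratio, so the check of both tissues rests on few genes. Of other cell types that the RNAs could hold, 6 of 7 tested erythroid genes (1 was higher in liver) and 3 of 4 tested plasma-cell genes had spleen-side calls, with list medians from -1.94 to -1.20 and from -2.34 to -2.08 over the arrays. Of 13 tested exocrine pancreas genes, 3 had spleen-side calls and 1 a liver-side call, with list medians from -0.36 to 0.06. The part of these cell types in the ratios below was not tested.

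Most translation genes differed by less than 2-fold between liver and spleen. Of the 62 genes, 52 had a ratio on all 3 arrays and were tested, and 23 of them (44.2%) were called, where a call is a limma adjusted p under 0.05. Of all 5731 genes tested, 54.9% were called. By direction, 13 of the 52 were higher in liver, against 27.1% of all genes, and 10 were higher in spleen, against 27.8% of all genes. Their shares of calls were thus near or below those of the arrays as a whole. The median absolute log2 ratio was 0.40 among the 52 and 0.51 over all genes, and the median log2 ratio was -0.12 against -0.03. At least a 2-fold difference was reached by 4 called members (7.69%), compared with 25.3% of all genes. Those 4 were Eif3d and Eif4e2 on the liver side, and Iars and Eif4e3 on the spleen side. The SD over the arrays had a median of 0.20 among the 52 and 0.22 over all genes. All 3 arrays shared the sign for 38 of the 52 (73.1%) and for 75.9% of all genes.

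**Figure D1:**
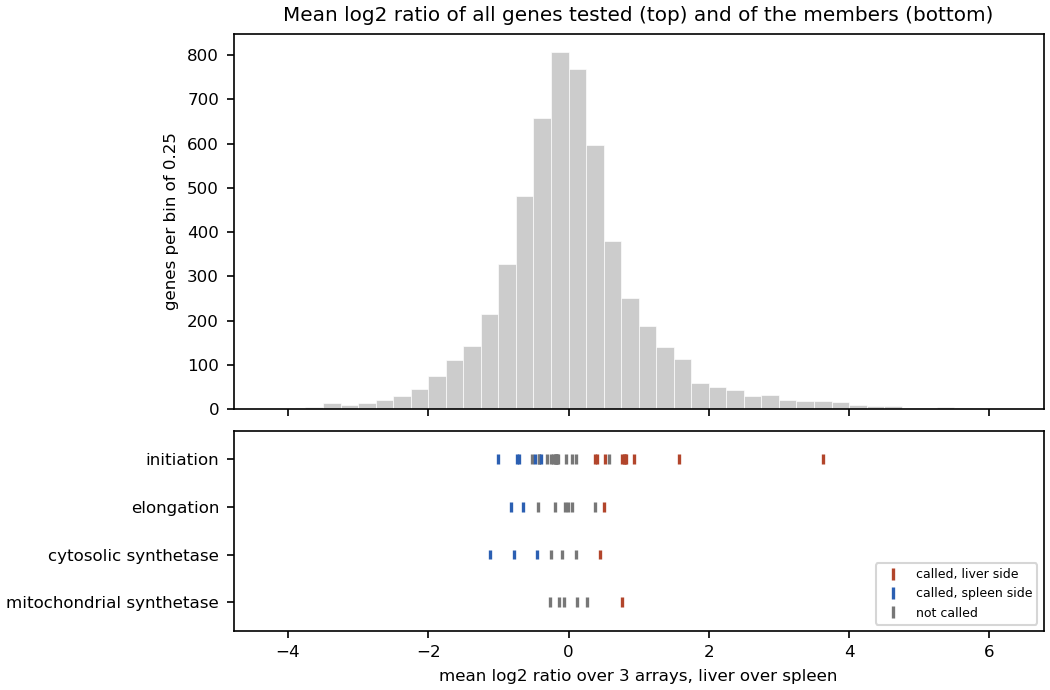
The upper panel counts all 5731 tested genes in bins of 0.25 of the mean log2 ratio (liver over spleen, 3 arrays). The lower panel marks each of the 52 tested translation genes by family, coloured by its call. Apart from Eif3d at 3.63 and Eif4e2 at 1.57, the members lie between -1.11 and 0.94.

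By family, 30 initiation genes were tested, with 10 calls on the liver side, 5 on the spleen side and a median log2 ratio of -0.16. Of 9 tested elongation genes, 1 was higher in liver and 2 in spleen (median -0.05). Of 7 tested cytosolic synthetases, 1 was higher in liver and 3 in spleen (median -0.25), and of 6 mitochondrial synthetases 1 was higher in liver and none in spleen (median 0.02). Over all genes, 27.1% had liver-side and 27.8% spleen-side calls. Whether the families differ from one another was not tested. Without array 1 the calls fell to 5 on each side. With both sides together this was 19.2% of the members, while the calls over all genes fell to 32.7%. Without moderation of the variance, 5 liver-side and 3 spleen-side calls were left among the members. With both sides together this was 15.4% of the members, against 25.5% of all genes.

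**Figure D2:**
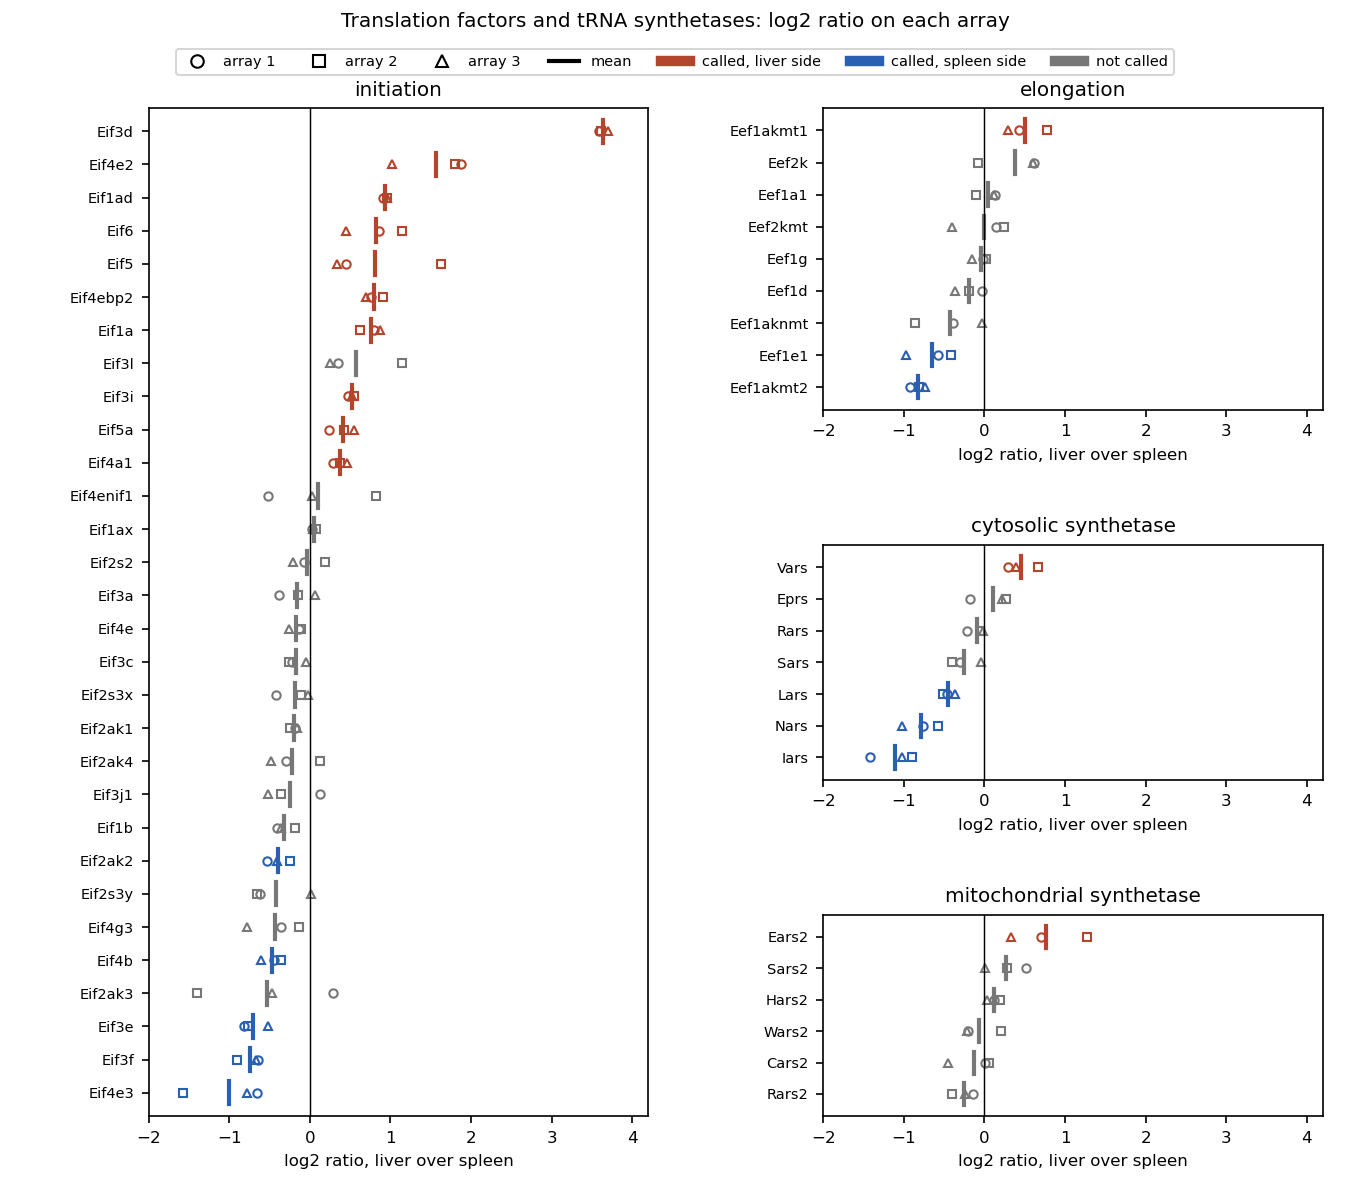
Each row is a tested gene, with its log2 ratio (liver over spleen) on arrays 1, 2 and 3 as open symbols and the mean as a bar, coloured by call. The 3 values of Eif3d lie between 3.59 and 3.70, whereas those of Eif2ak3 run from -1.40 to 0.29.

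Promoter sequences from RefSeq (GRCm38.p6, from 250 bases before to 50 bases after a start) were matched for 45 of the 62 genes, with 60 promoters. They were searched on both strands for short motifs known from promoters of growth and stress genes. The E-box CACGTG, which MYC and related factors bind, occurred in 13 of the 60 promoters (21.7%), from 11 of the 45 genes. It was in 9.65% of the 5873 promoters of all tested genes and in 7.15% of all 32851 promoters. Promoters are not all independent, as listed promoters of Eif5a overlap and share an E-box. The 60 also include promoters of untested genes such as Farsb. The E-box lay in promoters of 3 of the 8 liver-side genes with a promoter (Ears2, Eif4a1 and Eif5a), 2 of the 6 spleen-side genes (Eif3f and Iars) and 5 of the 25 tested genes that were not called. The motif was thus found on both sides and among genes without a call. The stretches below are shown because they carry this motif before the start of genes with a single listed promoter. Capitals mark the E-box, each stretch runs 5′ to 3′ on the gene's strand, and the E-box overlaps no other searched motif in it. The stretch of Iars also holds a CCAAT box and that of Eif3f a TATA box.

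Iars (chr13:49682049-49682078, plus strand, 69 bases before the start): gaccaatcgccaCACGTGttgtttgtaggt
Eif3f (chr7:108934335-108934364, plus strand, 68 bases before the start): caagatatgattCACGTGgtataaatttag
Eif4a1 (chr11:69672595-69672624, minus strand, 189 bases before the start): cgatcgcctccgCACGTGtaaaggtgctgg
Eif1b (chr9:120492570-120492599, plus strand, 24 bases before the start): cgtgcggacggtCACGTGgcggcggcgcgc
Farsb (chr1:78488919-78488948, minus strand, 39 bases before the start): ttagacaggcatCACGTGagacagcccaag
Eef1aknmt (chr1:162548475-162548504, minus strand, 147 bases before the start): gtgtggctgctgCACGTGgggcgcggaccg

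Of the other motifs, TGATGNAA is the core of the element bound by the amino acid stress factor ATF4. It was in the promoters of Eef2k, Eif2s3x, Gars (not tested) and Iars, 6.67% of the 60 against 2.42% for all tested genes. By call, it was in 0 of the 8 liver-side, 1 of the 6 spleen-side and 2 of the 25 uncalled genes. The YY1 motif AAGATGGCG was in 8.33% against 2.57%, and the NRF1 motif GCATGCGC in 5.0% against 5.07%. The CCAAT box was in 25.0% against 37.5%, and the TATA box TATAAA in 5.0% against 8.16%. Over all 32851 promoters the shares of these motifs, in the order given, were 3.97%, 1.4%, 2.71%, 37.4% and 13.6%. Matches of different motifs did not overlap in the members' promoters, and a match describes letters only.

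Among the factors that prepare the small subunit, Eif1ad, an eIF1A-like protein, had log2 ratios of 0.91, 0.96 and 0.96 on arrays 1, 2 and 3. The arrays lay close together, with a mean of 0.94 ± 0.03 (SD, n = 3). Liver was 1.92-fold higher (limma adjusted p = 0.0013). Eif1a, which encodes eIF1A and helps to scan for the start codon, stood at 0.79, 0.63 and 0.87. All 3 arrays were on the liver side, with a mean of 0.76 ± 0.12 (limma adjusted p = 0.00348). Its X-linked paralog Eif1ax stood at 0.03, 0.08 and 0.04 over 4 spots, with a mean of 0.05 ± 0.03, a 95% interval of -0.23 to 0.33 and limma adjusted p = 0.723. The paralogs are similar in sequence, so a cDNA spot may detect either. The 3 clones of Eif1a averaged 0.37, 0.46 and 1.47, each called on the liver side, so that the median of spots gave the gene 0.46 (adjusted p = 0.0179), while the 4 of Eif1ax lay between -0.16 and 0.23 and none was called. Eif1b, a relative of the start codon factor eIF1, had -0.41, -0.18 and -0.35, all on the spleen side, and was not called (limma adjusted p = 0.0713).

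Subunits of eIF2 showed no call. Eif2s2, the beta subunit, had -0.08, 0.19 and -0.21 (mean -0.03 ± 0.20, limma adjusted p = 0.856). Eif2s3x, the gamma subunit encoded on the X chromosome, had -0.42, -0.11 and -0.02 (mean -0.18 ± 0.21, limma adjusted p = 0.293). Its Y-linked copy Eif2s3y had -0.61, -0.65 and 0.02 (mean -0.42 ± 0.38, limma adjusted p = 0.0885). The array 3 value of Eif2s3y included a clone measured there only (0.28). With spots measured on all 3 arrays the gene was called on the spleen side at -0.51, and it was also called without array 3 at -0.63. The gamma copies are near-identical in sequence, so their separate values are uncertain. Eif2d, which can place tRNA without eIF2, had 0.81 on array 1 and 0.29 on array 3 and was not tested.

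The kinases that phosphorylate eIF2 and so lower initiation under stress all had negative means. All 3 arrays shared the sign for only 2 of the 4, and for 75.9% of all genes. Of all genes, 27.8% had spleen-side calls, and of the 4 kinases 1 had such a call. That was Eif2ak2 (PKR, activated by double-stranded RNA), with -0.53, -0.25 and -0.41 and a mean of -0.40 ± 0.14 (limma adjusted p = 0.0387). Its call was lost without array 1 (adjusted p = 0.226, mean -0.33) or array 3, with scaled arrays and with its own variance. Eif2ak1 (HRI, activated by lack of haem) had -0.18, -0.25 and -0.15, close together on the spleen side but not called (mean -0.19 ± 0.05, limma adjusted p = 0.196). Eif2ak3 (PERK, a sensor of the endoplasmic reticulum) had 0.29, -1.40 and -0.47, the widest spread of any tested member (SD 0.85), and was not called. Eif2ak4 (GCN2, activated by uncharged tRNA) had -0.29, 0.12 and -0.48. Its clones lay on opposite sides, at -0.83, -0.37 and -0.86 for the one (called, adjusted p = 0.00867) and 0.24, 0.62 and -0.11 for the other (not called).

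Of the 9 genes of the eIF3 complex, the largest initiation factor, 8 were tested. The liver side held 2 calls and the spleen side 2, near the shares of all genes (27.1% and 27.8%), and the median was -0.16. Eif3d, a subunit that can itself bind the cap of some mRNAs, had the largest ratio of all members, with 3.59, 3.61 and 3.70 on arrays 1, 2 and 3. The mean of 3.63 ± 0.06 corresponds to a 12.4-fold higher signal in liver (limma adjusted p = 3.18e-05), and 62 of the 5731 genes stood higher. All 4 of its spots carry the same EST accession, AW556539. Their values lay between 3.32 and 4.07, but only 1 spot had a ratio on all 3 arrays (3.54, 3.61 and 3.46), and 5 of the 12 values were exact zeros. With exact zeros kept as values, the mean was 2.12. No clone of another accession measured the gene, so the ratio could not be checked on a separate clone, and whether the clone carries Eif3d sequence was not tested. Of 179 single-gene spots with an AW accession and all 3 ratios, 2 reached a mean of 3 or more (1.12%), against 1.88% of all single-gene spots with all 3 ratios. The complete Eif3d spot is itself among these 2, so the share is no separate check of its clone.

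The means of the other tested eIF3 subunits lay between -0.74 and 0.58. Eif3f had -0.64, -0.90 and -0.67 (mean -0.74 ± 0.14, 1.67-fold higher in spleen, limma adjusted p = 0.00429). Eif3e had -0.81, -0.77 and -0.52 (mean -0.70 ± 0.16, limma adjusted p = 0.0055), and lost its call without array 1 at 0.0636, the highest adjusted p of its alternatives (lowest 0.00296). All 3 arrays were on the spleen side for both genes. Eif3i, a WD-repeat subunit, was on the opposite side, with 0.48, 0.55 and 0.52 (mean 0.52 ± 0.04, limma adjusted p = 0.0117). Its 2 clones agreed closely, at 0.50 and 0.54, but the call was lost without array 1 (adjusted p = 0.0859). Eif3l had 0.35, 1.14 and 0.25, in which array 2 stood apart, and was not called (limma adjusted p = 0.0573). It was called with scaled arrays (0.0488) and with every spot tested on its own (0.0485), and the other alternatives spanned 0.0534 to 0.258. The scaffold subunits Eif3a (-0.38, -0.15 and 0.06) and Eif3c (-0.22, -0.26 and -0.05) and the loosely bound Eif3j1 (0.13, -0.36 and -0.51) were not called. Eif3h was listed at 0 on all 3 arrays.

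Of the cap-binding proteins, the 3 relatives of eIF4E had different ratios. Eif4e itself, the factor whose binding to the cap begins most initiation, had -0.13, -0.11 and -0.26 (mean -0.17 ± 0.08, 95% interval -0.45 to 0.12, limma adjusted p = 0.266). Eif4e2, which binds the cap but represses translation, had 1.88, 1.81 and 1.02 (mean 1.57 ± 0.48, 2.97-fold higher in liver, limma adjusted p = 0.0017). The lower value on array 3 included a clone measured there only (0.66). Its 2 complete clones were both called on the liver side but differed widely, with 3.07, 3.17 and 1.93 for AK017221 and 0.69, 0.44 and 0.47 for AK018516. The lowest value of the former was above the highest of the latter, so the size of the ratio depends on the clone. Eif4e3, a further cap-binding relative, was on the spleen side with -0.66, -1.57 and -0.78 (mean -1.0 ± 0.50, limma adjusted p = 0.0095), and array 2 held the largest difference. Differences between these genes were not tested.

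Among their partners, Eif4ebp2, which binds eIF4E and blocks it when mTOR is inactive, had 0.77, 0.91 and 0.70 (mean 0.79 ± 0.11, limma adjusted p = 0.00296). All 3 arrays were on the liver side. Its relative Eif4ebp1 had a ratio on array 3 only (-0.73). Eif4a1, the helicase that unwinds the mRNA, had 0.29, 0.38 and 0.46 (mean 0.38 ± 0.08, limma adjusted p = 0.0377), and lost its call when any 1 of the 3 arrays was left out (means 0.33 to 0.42). Eif4b, which stimulates this helicase, was on the other side with -0.45, -0.36 and -0.61 (mean -0.47 ± 0.13, limma adjusted p = 0.0204), and its call was lost without array 1 or array 3. The scaffold Eif4g3 had -0.36, -0.14 and -0.78 and was not called, but was called without array 2. Eif4enif1, a transporter of eIF4E, had -0.52, 0.82 and 0.02, with arrays on both sides of 0. Eif4a3, a helicase of the exon junction complex, had a ratio on array 3 only (0.18).

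The remaining initiation genes, Eif5, Eif5a and Eif6, act at different steps, and each was called on the liver side. Over all genes, 27.1% had liver-side calls, and these genes are only what remained of the family. Eif6, which keeps free large subunits from joining early, had 0.86, 1.15 and 0.45 (mean 0.82 ± 0.35, limma adjusted p = 0.0091). Its 3 complete clones averaged 0.52, 0.82 and 1.20, each called, whereas a clone measured on array 3 only stood at 0.19. Without array 1 the gene lost its call at 0.0719, within a span of 0.00411 to 0.116 for the adjusted p of its alternatives. Eif5a, which helps elongation and termination and carries the amino acid hypusine, had 0.24, 0.43 and 0.55 (mean 0.41 ± 0.16, limma adjusted p = 0.0367). Leaving out any 1 array ended that call (means 0.34 to 0.49). Eif5, which makes eIF2 hydrolyse its GTP, had 0.46, 1.63 and 0.34 (mean 0.81 ± 0.71, limma adjusted p = 0.0498). Array 2 stood apart, and without it the mean was 0.40 (adjusted p = 0.0474). The call was lost under 9 of 12 alternatives, among them leaving out array 1 or array 3.

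The elongation factor eEF1 showed no call among its measured subunits. Eef1a1, which delivers charged tRNA to the ribosome, had 0.13, -0.11 and 0.12 (mean 0.05 ± 0.14, 95% interval -0.25 to 0.35, limma adjusted p = 0.752), and its 2 clones averaged 0.05 each. It has many processed copies in the genome that a cDNA spot may also detect. Eef1d, an exchange factor subunit, had -0.03, -0.19 and -0.36 over 4 clones, of which 1 was called on the spleen side (-0.55, adjusted p = 0.0109) and the others averaged -0.40, 0.05 and 0.12. Eef1b2 was listed at 0 on all arrays. For Eef2, the factor that moves the ribosome, 4 spots were annotated together with another gene and were left out by the rule.

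Eef1g, the gamma subunit of eEF1, had clones called on both sides. Its gene values were -0.02, 0.03 and -0.15, with a mean of -0.05 ± 0.09 and limma adjusted p = 0.742. Of its 7 clones, 2 were called on the liver side, with 0.95, 1.16 and 0.71 for AK007991 and 0.76, 0.91 and 0.92 for AK014277. On the spleen side 4 were called, averaging -0.64, -0.63, -0.54 and -0.41, and the remaining clone averaged 0.08. Within a clone the arrays agreed in sign for all 7, so the difference lay between clones. With the median of the spots the gene was called on the spleen side at -0.40 (adjusted p = 0.0281). Which clones represent the transcript was not tested.

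Enzymes that modify the elongation factors went both ways. Eef1akmt2, a lysine methyltransferase of eEF1A, had -0.92, -0.81 and -0.74 (mean -0.82 ± 0.09, 1.77-fold higher in spleen, limma adjusted p = 0.0024). Eef1akmt1, another such enzyme, had 0.43, 0.77 and 0.30 (mean 0.50 ± 0.25, limma adjusted p = 0.0284). That call was lost without array 1 or array 2, and with only its 1 complete spot (mean 0.39), and also with exact zeros kept as values (mean 0.29, adjusted p = 0.14). Eef1aknmt, which methylates the same factor at its start, had -0.40, -0.86 and -0.03 and was not called. Eef2k, the kinase that slows elongation by phosphorylating eEF2, had 0.61, -0.08 and 0.60 and was called only without array 2 (0.61). Eef2kmt, an eEF2 methyltransferase, had 0.15, 0.25 and -0.40 and was not called.

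**Figure D3:**
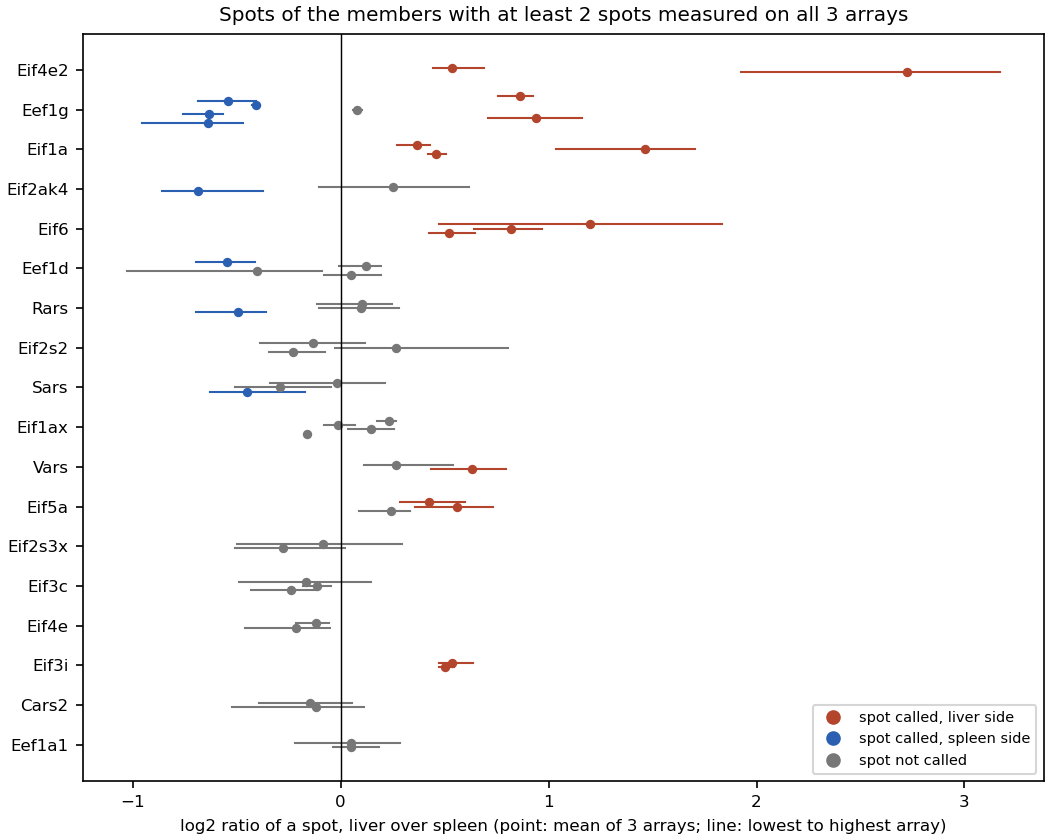
Spots of the 18 tested genes with at least 2 spots measured on all 3 arrays, ordered by the range between spots. Points are spot means of the log2 ratio (liver over spleen) and lines run from the lowest to the highest array, coloured by the call of the spot. Spots of Eef1g lie on both sides of 0 (-0.64 to 0.94), while those of Eif3i lie at 0.50 and 0.54.

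Clones of a gene are not replicates of a tissue, and for some genes they lay far apart. Of the genes in the plot of spots, Eif4e2 had a range of 2.19 between its spot means, Eef1g 1.58 and Eif1a 1.10. The SDs over the arrays were 0.48, 0.09 and 0.12, but these are of gene values averaged over spots. A range and an SD are unlike measures, so their sizes cannot be compared directly. The ranges between spot means were 0.04 for Eif3i and 0.03 for Cars2. Among genes whose spots lay on opposite sides, Eif2s2 ran from -0.23 to 0.27, Rars from -0.50 to 0.10 and Eif1ax from -0.16 to 0.23.

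Of the 7 tested cytosolic synthetases, 3 had spleen-side calls and 1 a liver-side call, where 27.8% and 27.1% of all genes had such calls. Iars charges tRNA with isoleucine, and its values were -1.42, -0.89 and -1.02 (mean -1.11 ± 0.27, 2.16-fold higher in spleen, limma adjusted p = 0.0019). This was the lowest mean of all members, and its E-box is printed above. Nars, the asparagine enzyme, had -0.76, -0.58 and -1.02 (mean -0.78 ± 0.22, limma adjusted p = 0.0051), and Lars, the leucine enzyme, had -0.46, -0.51 and -0.37 (mean -0.45 ± 0.07, limma adjusted p = 0.021). All 9 values of these 3 genes were below 0. Lars lost its call without array 1 or array 3. Vars, the valine enzyme, was the exception on the liver side, with 0.29, 0.67 and 0.39 (mean 0.45 ± 0.20, limma adjusted p = 0.032), and leaving out any 1 array ended the call. Of its 2 clones, 1 was called (0.63) and the other averaged 0.27.

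Several synthetases for charged and branched amino acids sit together in a multisynthetase complex. Of its measured members, Iars and Lars were called on the spleen side. Eprs, the enzyme for glutamate and proline, had -0.17, 0.27 and 0.21 (limma adjusted p = 0.554), and Rars, the arginine enzyme, had -0.22, -0.06 and -0.02 (limma adjusted p = 0.504). The 3 spots of Rars carry the same accession, yet 1 was called on the spleen side (-0.50) and the others averaged 0.10 each. Eef1e1, a scaffold protein of this complex, was on the spleen side with -0.57, -0.41 and -0.97 (mean -0.65 ± 0.29, limma adjusted p = 0.0145). It lost its call without array 1 or array 3. Sars, the serine enzyme outside the complex, had -0.31, -0.41 and -0.05 and was not called.

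The remaining cytosolic synthetases lacked a ratio on at least 1 array and were not tested. Gars (glycine) had 0.38 on array 1 and 0.23 on array 3, and Hars (histidine) had 0.24 on array 2 and -0.10 on array 3. The phenylalanine subunit Farsa had -0.26 on array 1 and 0.26 on array 3. Farsb, its partner, had 0.22 and Wars (tryptophan) 0.34, both on array 3 only. None of these values exceeded 0.4 in size.

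Of the mitochondrial synthetases, which serve translation of the few proteins encoded by mitochondrial DNA, Ears2 (glutamate) was the only one called. Its values were 0.70, 1.28 and 0.33 (mean 0.77 ± 0.48, 1.70-fold higher in liver, limma adjusted p = 0.0222), and leaving out array 1 ended the call at an adjusted p of 0.102, where its alternatives spanned 0.0125 to 0.181. With exact zeros kept as values the mean was 0.44 (adjusted p = 0.0416). Sars2 had 0.51, 0.28 and 0.00, Hars2 0.12, 0.19 and 0.04, and Rars2 -0.14, -0.40 and -0.24, each with a single sign over the arrays and no call. Wars2 (-0.20, 0.21 and -0.21) and Cars2 (0.00, 0.05 and -0.46) had mixed signs.

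Further genes of translation, listed by function, also had calls on both sides. Of 78 listed, 32 were tested, with 6 liver-side calls, 8 spleen-side calls and 18 genes not called (43.8% called, median -0.04). Over all genes 54.9% were called, 27.1% for liver and 27.8% for spleen. Without array 1 there was 1 liver-side call and 5 were on the spleen side, where 32.7% of all genes were called on either side. With scaled arrays the liver side held 3, where 51.0% of all genes were called on either side. Both poly(A)-binding proteins, which link the ends of an mRNA, were higher in spleen, Pabpc4 at -1.54, -1.53 and -0.95 (mean -1.34 ± 0.34, limma adjusted p = 0.00139) and Pabpc1 at a mean of -0.96 ± 0.21 (limma adjusted p = 0.00229). Nck1, an adaptor that can recruit a phosphatase to eIF2, had -1.18, -1.49 and -1.96 (mean -1.54 ± 0.39, limma adjusted p = 0.00112). Dph5 (-0.97 ± 0.19) and Dph7 (-0.55 ± 0.20), enzymes for the diphthamide residue of eEF2, were higher in spleen, while Dph3 (0.40 ± 0.11) was higher in liver and Dph6 (0.00 ± 0.23) was not called. In mitochondria the ribosome recycling factor Mrrf had 1.83, 1.87 and 0.89 (mean 1.53 ± 0.56, limma adjusted p = 0.00274) and the elongation factor Tsfm a mean of 0.53 ± 0.16, both higher in liver. With exact zeros kept as values the mean of Mrrf was 0.91 (adjusted p = 0.00246). The mitochondrial initiation factor Mtif2 was higher in spleen (-0.85 ± 0.10). Of genes in the stress and mTOR pathways, Ddit3 (-0.05 ± 0.20), Ppp1r15b (0.37 ± 0.23), Mknk2 (0.00 ± 0.12), Rptor (-0.07 ± 0.25) and Larp1 (0.34 ± 0.13) were not called.

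**Figure D4:**
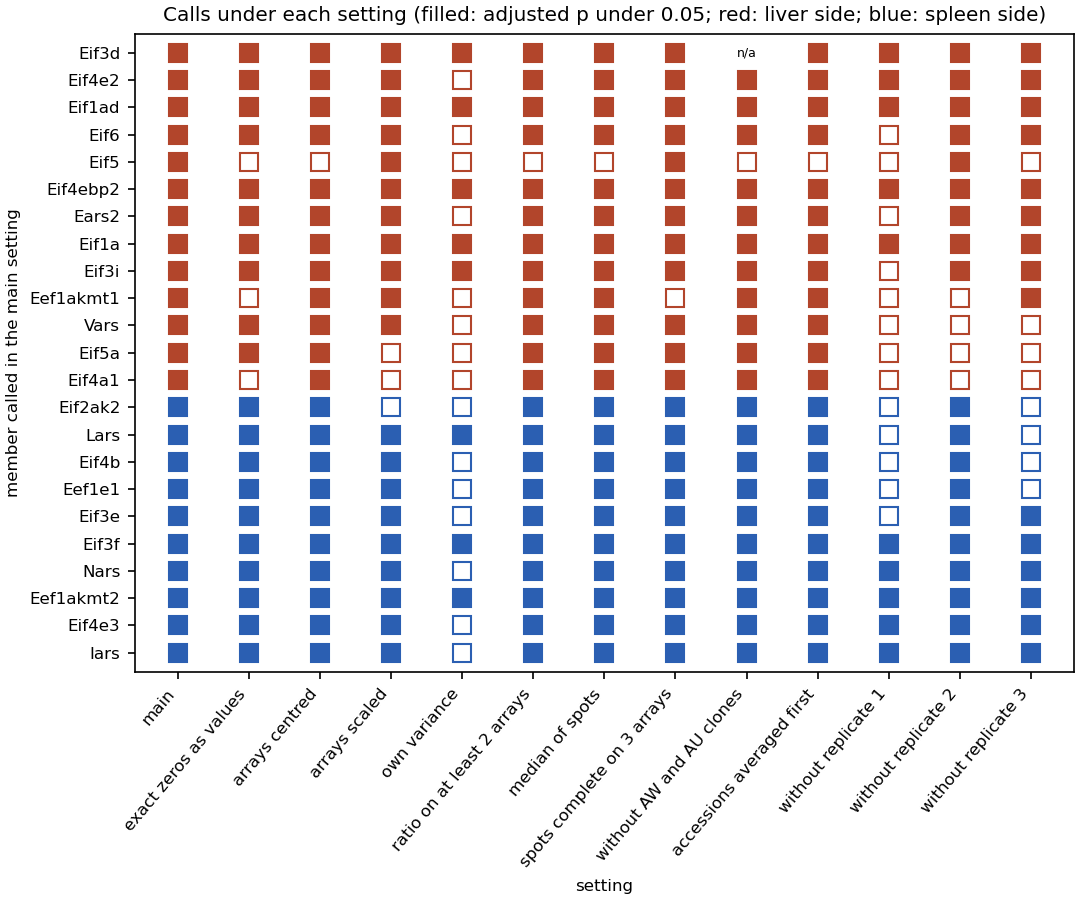
Rows are the 23 genes called in the main setting and columns the main setting and 12 alternatives. Filled squares are calls (adjusted p under 0.05), with red for the liver side and blue for the spleen side; n/a marks Eif3d, whose spots all have an AW accession. Eif5 was called under 3 of 12 alternatives, and no gene changed colour.

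Of the 23 calls, 6 held under each alternative that could be run, namely Eif3d, Eif1ad, Eif4ebp2 and Eif1a on the liver side, and Eef1akmt2 and Eif3f on the spleen side. For Eif3d this covers 11 alternatives, since its spots all have an AW accession. The other 17 lost their call in at least 1 alternative, as the plot of calls by setting shows, and none of the 23 changed direction. A further 6 genes, without a call in the main setting, were called in at least 1 alternative. The shares of all genes that kept, lost or gained a call in this way are not given here. Whether the members are more or less stable than other genes was therefore not tested.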

How the data were processed

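The authors deposited log2 ratios, 1 for each spot of an array. The methods of background correction, normalization and spot filtering were not given in the sources used here. That the base is 2 was read from the highest values, which equal the log2 of 100. Over spots with a ratio, the array medians were -0.02, 0.03 and 0.05, which fixes no scale or direction. An exact 0, listed for 3207, 5153 and 1063 spots of arrays 1, 2 and 3, was treated as missing. Channel intensities were not used here. Precision is limited by the number of arrays.

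Gene names came from the platform annotation, and current symbols from RefSeq (GRCm38.p6) by Entrez number, which matched 12228 of 12336 single-gene spots. Spots of a gene were averaged per array. Genes with a ratio on all 3 arrays were fitted with limma 3.58.1 in R 4.3.3 (intercept, eBayes, two-sided, Benjamini-Hochberg over 5731 genes). The fit has 2 residual and 3.51 prior degrees of freedom per gene. Adjusted p-values of single spots come from the same fit to spots. The 95% intervals use the moderated variance. The fit was tested on simulated data. Errors are SD over 3 arrays. Values on every array were planned for called genes of at least 2-fold, the extremes of each family, core factors and genes with opposing clones, and are given for further members too. The members and lists were chosen with earlier results of these data known. Alternatives were exact zeros as values, centred or scaled arrays, own variance, at least 2 arrays, other uses of a gene's spots, and leaving out each array. Averaging accessions first was chosen after seeing the data.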

Additional observations from a re-analysis of the deposited data

How the results depend on the processing

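The counts of called members, 13 for liver and 10 for spleen, stayed within 1.5 times under all alternatives but 3. With own variance they were 5 and 3, together 15.4% of the members, where 25.5% of all genes were called on either side. With every spot tested on its own they were 22 and 19 of 86 spots. The unit there is the spot, so these counts are not comparable with those of the 52 genes. The share of calls over all spots is not given here. Leaving out 1 array at a time gave 5 to 10 for liver and 5 to 11 for spleen, with the lowest counts without array 1. The share of calls over all genes was then 32.7% to 55.3%, also lowest without array 1. The counts of other translation genes, 6 and 8 of 32, became 3 on the liver side with scaled arrays. There 51.0% of all genes were called on either side. With own variance they were 1 and 1, against 25.5% of all genes called on either side. With single spots they were 12 and 13 of 46 spots, again in another unit. Leaving out 1 array gave 1 to 6 and 5 to 9, beside the same 32.7% to 55.3% of all genes. The cause of these differences was not tested. Fewer arrays enter the fits with an array left out, and more features enter the fit to single spots. Own variance keeps all arrays and genes but drops the moderation of the variance.

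No called member reversed, but 7 uncalled ones did. Rars was 0.085 with the median of spots. With 1 array left out, Cars2 ran from -0.23 to 0.028, Eef1g from -0.085 to 0.0044, Eef2kmt from -0.13 to 0.20, Eif2s2 from -0.14 to 0.058, Eif4enif1 from -0.25 to 0.42 and Wars2 from -0.21 to 0.0024. Leaving out an array leaves 1 residual degree of freedom per gene. Signal over background, which could limit small ratios, is unknown.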
